A study of Mus musculus with 8 samples.

Results

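The 10 genes described here encode the acyltransferases and phosphatases that build triglyceride in the liver cell, *Gpam*, *Gpat3*, *Gpat4*, *Lpin1*, *Lpin2*, *Lpin3*, *Dgat1*, *Dgat2*, *Mogat1* and *Mogat2*. They were chosen by name for their place in the pathway, not by a cut on their values, from 14065 genes that had a symbol and could be tested. Earlier results of these data were known when the choice was made. All 10 were on the array, with 20 probes between them, and 18 of these probes passed the filter on dim probes, at least 1 for each gene. Total liver RNA came from 10-week-old male mice on the C57BL/6 background, 4 *Agpat3* WT and 4 *Agpat3* KO, and each mouse was measured on 1 one-color Agilent array with Cy3 as the dye. The KO is the deletion in all tissues, not the liver-specific deletion, and no further treatment is given in the labels. The study asked how the liver transcriptome responds when AGPAT3, which places docosahexaenoic acid into phospholipids, is missing. The comparison below asks what the genes of the same glycerolipid route did on these arrays.

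Triglyceride assembly starts from glycerol 3-phosphate. A glycerol 3-phosphate acyltransferase (GPAT) adds the first fatty acid, an acylglycerophosphate acyltransferase (AGPAT, the family of the deleted enzyme) adds the next and gives phosphatidic acid, a lipin removes the phosphate to give diacylglycerol, and a diacylglycerol acyltransferase (DGAT) adds the last fatty acid. Monoacylglycerol acyltransferases (MOGATs) reach diacylglycerol by another way, from monoacylglycerol, and are best known in the intestine. Phosphatidic acid and diacylglycerol are also the precursors of phospholipids, so the route forks after the AGPAT step and again after the lipin step. The GPAT gene *Gpam* is a known target of SREBP1, the transcription factor of fatty acid synthesis, in the liver.

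*Gpam*, which encodes the mitochondrial enzyme GPAT1, was the 1 gene among the 10 that was called. Its mRNA was 2.10-fold higher in *Agpat3* KO liver. None of the other 9 genes passed the test in either direction. Because *Gpam* carries the result, the sequence before its starts is shown first. Windows before 2 RefSeq starts of *Gpam* were at hand, on the minus strand of chromosome 19 of GRCm38.p6. The first sequence is the outer part, 169 bases long, of the window before the upstream start, at chr19:55127320-55127488. It ends 81 bases before that start. Those 81 bases were left out because the gene as RefSeq draws it begins further out and covers them. The capitals mark CACCCCAC, letters that occur in sterol regulatory elements. They begin 180 bases before the upstream start, a distance not counted from the outer end of the gene. The second is the 250 bases directly before the downstream start, at chr19:55099478-55099727, which also lies inside the gene as RefSeq draws it. Its capitals mark a GC box on the opposite strand (GGGCGG), which begins 16 bases before the start.
Gpam upstream start: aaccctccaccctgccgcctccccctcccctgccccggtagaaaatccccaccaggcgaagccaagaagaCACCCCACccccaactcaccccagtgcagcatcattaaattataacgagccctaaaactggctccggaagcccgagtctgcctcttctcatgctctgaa
Gpam downstream start: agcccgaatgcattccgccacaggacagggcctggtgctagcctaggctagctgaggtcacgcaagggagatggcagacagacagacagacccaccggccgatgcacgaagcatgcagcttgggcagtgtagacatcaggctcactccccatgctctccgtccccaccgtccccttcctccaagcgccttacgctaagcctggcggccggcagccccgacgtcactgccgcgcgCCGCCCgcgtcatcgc

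Promoter windows of 6 of the 10 genes were at hand, 10 windows in all, each running from 250 bases before to 50 bases after a start, and they were searched on both strands. CACCCCAC was found in 1 of the 10 windows, that of *Gpam* shown above, and in 2.87% of all 32851 mouse windows. The longer sterol regulatory letters TCACNCCAC, which overlap with it in part, were in none of the 10 and in 1.24% of all windows. The E-box CACGTG, which SREBP1 and clock factors can bind, was in 2 windows, 1 of *Lpin2* and 1 of *Lpin3*, and in 7.15% of all. CCAAT was in 3 windows, of *Gpam*, *Lpin2* and *Mogat1* (37.4% of all), and the GC box GGGCGG in 5, of *Gpam*, *Gpat3*, *Lpin2* and *Lpin3* (35.7% of all). These matches describe the letters in the windows and do not show that a factor binds there.

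All values are log2 of the processed signal with each array's 75th percentile set to 0, and 1 unit is a doubling. Levels are compared between mice for 1 probe. Where the signals of 2 probes are subtracted within a mouse, only the shift between genotypes is read, not which RNA is more abundant. Dim and bright refer to the signal of a probe. Where a gene had more than 1 probe, the brightest one stands for it. The call required over 1.5-fold in either direction and a limma adjusted p (Benjamini-Hochberg over all 29067 probes tested) under 0.2, the thresholds in the legend of the study's volcano plot. The 8 arrays lay on 1 slide, WT in its row 1 and KO in its row 2, and an effect of the row cannot be told apart from genotype. Nothing in the labels says that the mice came from separate litters or cages, and the p-values measure the spread between these mice. In whole liver, less RNA per cell and fewer cells of a type cannot be told apart.

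The deleted gene was checked first. *Agpat3* gave 5.65, 5.66, 5.80 and 5.88 in WT and -0.48, 0.02, -0.58 and -0.47 in KO, a log2 change of -6.12 (standard error 0.14, limma adjusted p = 4.47e-07), and its second probe changed by -5.69. The liver label was also checked. The 5 hepatocyte markers on the array summed to between 3710 and 4188 times the 75th percentile signal in WT and between 3805 and 4071 in KO, and 0 of them were called.

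Among the 10 genes 1 was called higher and 0 were called lower. Over all 14065 genes tested, 1.01% were called higher and 0.754% lower. The median log2 change of the 10 genes was 0.18 and that of all genes was -0.03. The mean was higher in KO for 7 of the 10 genes and lower for 3, with *Dgat1* changing its side under normexp background correction, *Dgat2* under median centring and *Lpin1* when its probes were averaged. With 1 mouse left out, *Gpat3* and *Mogat2* could change sides as well. Of all genes, 42.1% had a higher mean in KO. An unadjusted p under 0.05 was reached by *Gpam*, *Gpat4* and *Mogat1*, 3 of 10, and by 13.9% of all genes. For 1 of the 10 genes the lowest KO value exceeded the highest WT value and for 0 the reverse held, against 3.85% and 5.81% of all genes.

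**Figure D1:**
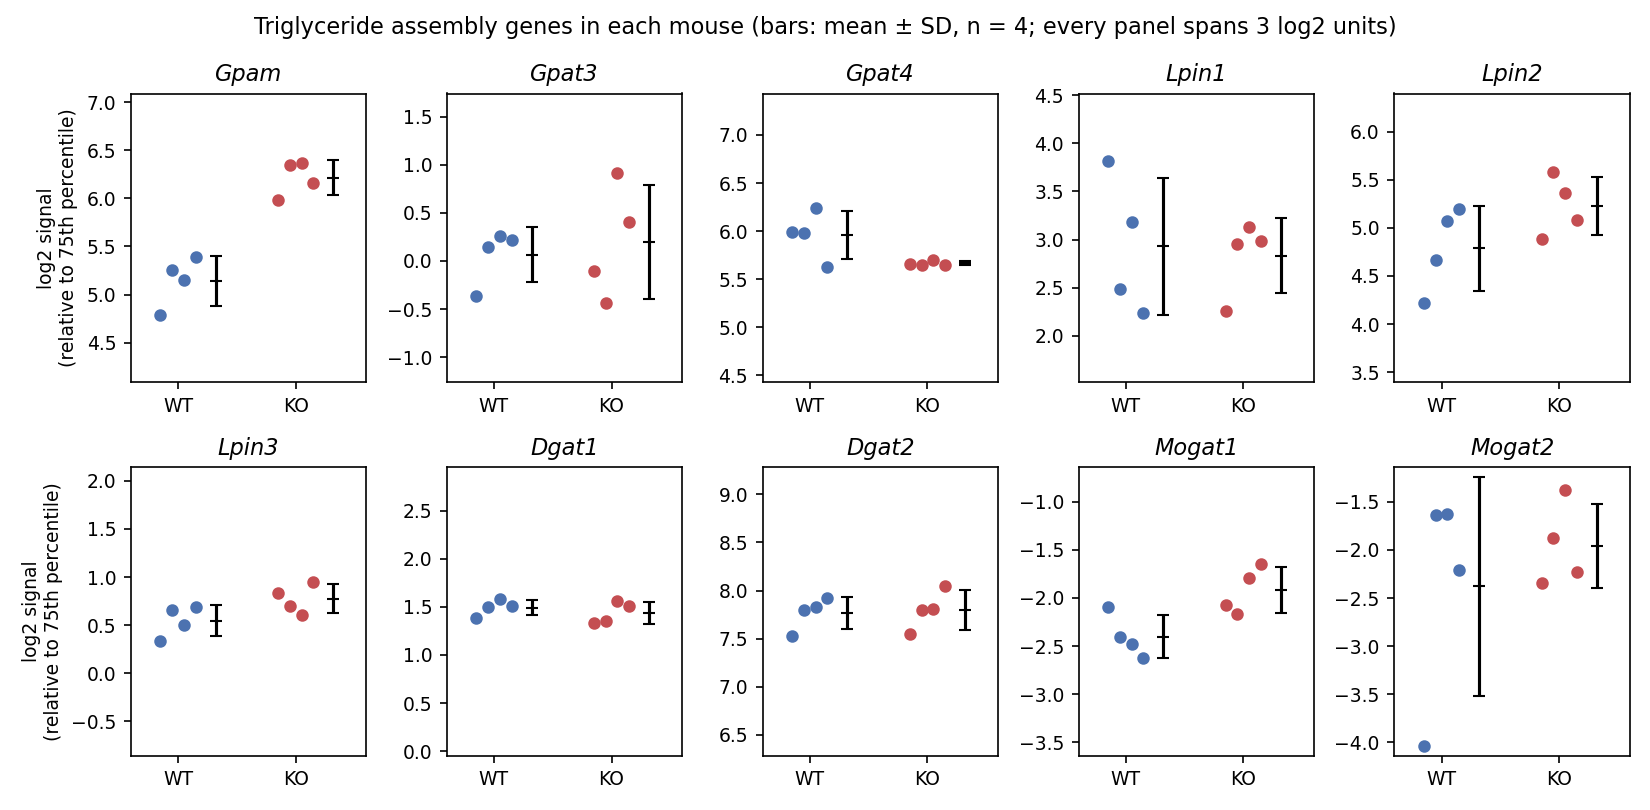
Log2 signal of the 10 triglyceride assembly genes in each of 8 mice, with the 75th percentile of each array at 0. Each panel is 1 gene on its own vertical axis, all spanning 3 log2 units, with WT in blue, KO in red, and mean ± SD (n = 4) beside the points. *Gpam* is the 1 gene whose KO points (5.99 to 6.37) all lie above its WT points (4.78 to 5.39).

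The GPAT step is the entry to the pathway. *Gpam* gave 4.78, 5.25, 5.15 and 5.39 in WT and 5.99, 6.34, 6.37 and 6.16 in KO. The groups did not overlap. The gap between the highest WT and the lowest KO mouse exceeded the range within KO liver, but not that within WT liver. The means were 5.15 ± 0.26 and 6.22 ± 0.18 (SD, n = 4 each), and the log2 change was 1.07 (standard error 0.14, 95% interval from 0.74 to 1.40, limma adjusted p = 0.0282). This corresponds to 2.10-fold, with an interval from 1.67 to 2.64. The exact permutation test, two-sided, gave p = 0.0286, the smallest that 4 mice against 4 allow. Ranked from the largest increase in log2 downwards, *Gpam* was number 79 of the 14065 genes, and larger decreases were not counted. Within the 4 columns of the slide, each with 1 WT and 1 KO array, the KO array was higher by 1.20, 1.09, 1.22 and 0.77.

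The second probe of *Gpam*, which is listed under another RefSeq transcript, was dimmer and was called as well. It gave -2.01, -1.66, -1.81 and -0.89 in WT and -0.41, 0.26, 0.48 and -0.02 in KO, again with no overlap. Its log2 change was 1.67 (standard error 0.27, limma adjusted p = 0.0496), or 3.18-fold with an interval from 2.07 to 4.88. Its change was larger than that of the brighter probe by 0.60, a difference that did not pass (exact permutation p = 0.0571, adjusted p = 0.229 over 8 comparisons of probes of the same gene, made after their values were seen).

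*Gpat4*, which encodes a GPAT of the endoplasmic reticulum, gave 5.99, 5.98, 6.24 and 5.62 in WT and 5.66, 5.65, 5.70 and 5.65 in KO. The KO mice were close together and lay within the WT range, near its low end. The log2 change was -0.29 (standard error 0.12, 95% interval from -0.57 to -0.02, limma adjusted p = 0.351). The exact permutation test gave p = 0.143. The SD was 0.25 in WT and 0.02 in KO (n = 4 each). The 2 other probes of *Gpat4* changed by -0.26 and -0.22, also without passing.

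*Gpat3*, the other GPAT of the endoplasmic reticulum, gave -0.36, 0.14, 0.26 and 0.22 in WT and -0.11, -0.43, 0.91 and 0.41 in KO. The highest and the lowest of the 8 mice were both KO. *Gpat3* changed by 0.13 (standard error 0.28, 95% interval from -0.52 to 0.78, limma adjusted p = 0.886), an interval that still holds changes of 1.5-fold, and the second probe gave -0.01. *Gpat2*, a mitochondrial isoform known mainly from testis, changed by -0.25 (limma adjusted p = 0.276).

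The 3 enzymes of this step were then compared with each other within each mouse. The log2 signal of *Gpam* minus that of *Gpat4* was on average -0.81 ± 0.44 in WT and 0.55 ± 0.17 in KO (SD, n = 4 each), a shift of 1.36. For *Gpam* minus *Gpat3* the averages were 5.08 ± 0.13 and 6.02 ± 0.57, a shift of 0.94. In both, the KO values were all higher than the WT values (exact permutation p = 0.0286, adjusted p = 0.129 over 9 pairs of genes). *Gpat4* minus *Gpat3* shifted by -0.42 with overlapping groups (exact permutation p = 0.286, adjusted p = 0.624). Thus the change of *Gpam* was larger than that of either other GPAT at the threshold of 0.2 used here. Both pairs share the *Gpam* values and stand at the smallest p of the test. Each passed after adjustment only because both stood there, so they are not separate evidence. With 1 mouse left out the smallest p the test allows is larger, and both *Gpam* pairs then missed the threshold in 7 of 8 cases, although the shifts stayed between 0.69 and 1.13 for *Gpat3* and between 1.23 and 1.55 for *Gpat4*.

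**Figure D2:**
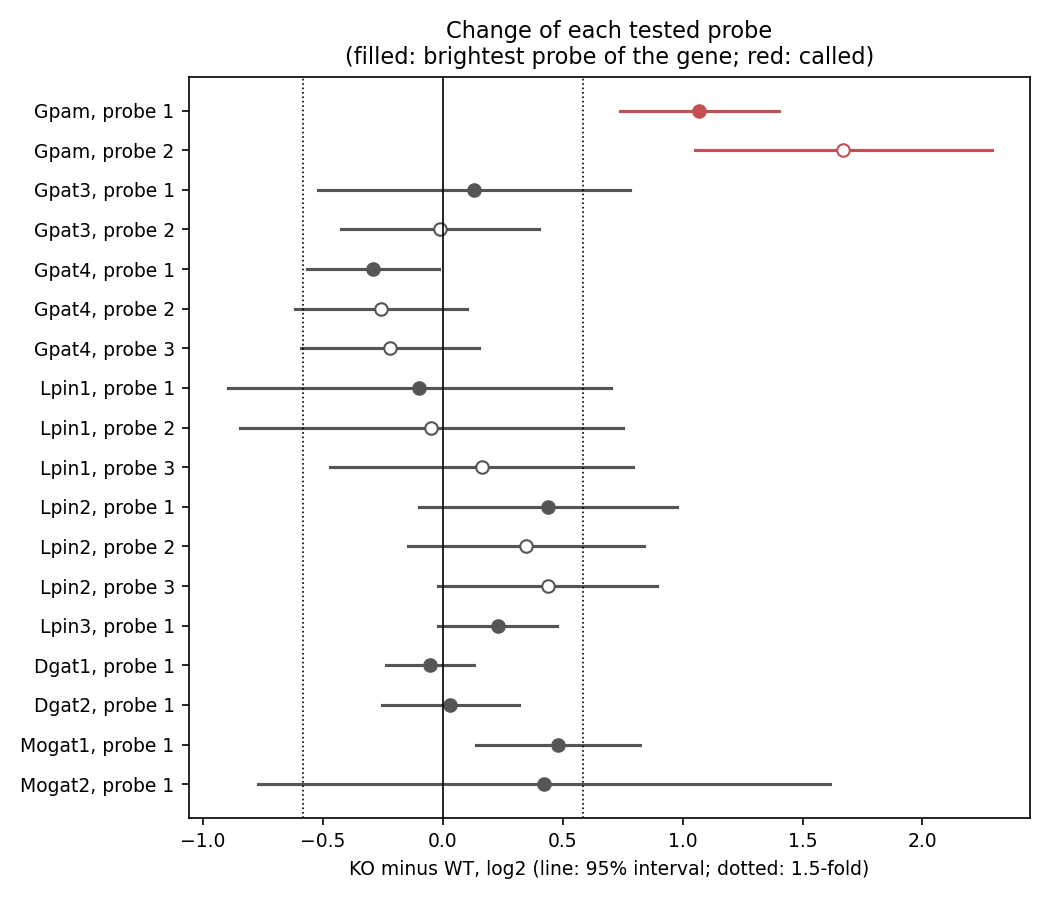
KO minus WT log2 change of each of the 18 tested probes of the 10 genes, with its 95% interval from limma. Filled points are the brightest probe of a gene, red marks a called probe, and dotted lines mark 1.5-fold in either direction. Both *Gpam* probes (1.07 and 1.67) lie right of the dotted line with their whole intervals. The intervals of *Dgat1*, *Dgat2*, *Lpin3*, the brightest *Gpat4* probe and the dimmer *Gpat3* probe lie between the dotted lines.

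The AGPAT step that follows held the deleted gene. Of its 6 genes, 1 was called lower, *Agpat3*, and 0 were called higher. The other 5 lay between -0.26 for *Agpat4* and 0.15 for *Agpat2*, the isoform whose loss is known to cause lipodystrophy. *Agpat2* gave an adjusted p of 0.484 and *Agpat4* an adjusted p of 0.326 in limma.

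The lipins remove the phosphate of phosphatidic acid, and lipin 1 also acts with the coactivator PGC-1α in the nucleus. *Lpin1* gave 3.82, 2.49, 3.18 and 2.24 in WT and 2.26, 2.95, 3.13 and 2.98 in KO. The WT mice alone spanned more than the KO mice did, and all KO mice lay within the WT range. On average *Lpin1* changed by -0.10 (standard error 0.35, 95% interval from -0.90 to 0.70, limma adjusted p = 0.931). *Lpin1* was among the genes that varied most between mice of the same genotype, with a within-group SD of 0.57 that was exceeded by 2.97% of the genes tested. Its other probes changed by -0.05 and 0.16. Without the first WT mouse, which was the highest, the change was 0.20, so these arrays set no direction for *Lpin1*.

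*Lpin2*, the lipin known best in liver, gave 4.22, 4.67, 5.07 and 5.20 in WT and 4.88, 5.58, 5.36 and 5.08 in KO. KO values were high in 2 mice, above all WT mice, and the rest overlapped. The mean of *Lpin2* differed by 0.44 (standard error 0.23, 95% interval from -0.10 to 0.97, limma adjusted p = 0.479), and the 2 other probes gave 0.35 and 0.44. Without the first WT mouse the change was 0.25.

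*Lpin3* gave 0.34, 0.65, 0.50 and 0.69 in WT and 0.83, 0.70, 0.61 and 0.95 in KO. In KO 3 of 4 mice lay above the highest WT mouse. For *Lpin3* the log2 change was 0.23 (standard error 0.11, 95% interval from -0.02 to 0.48, limma adjusted p = 0.414). Its second probe was well above background on 0 of 4 WT arrays and 1 of 4 KO arrays, and it was not tested. Compared within each mouse, the 3 lipins did not shift against each other beyond their spread: *Lpin1* minus *Lpin2* shifted by -0.54, *Lpin1* minus *Lpin3* by -0.33 and *Lpin2* minus *Lpin3* by 0.21 (exact permutation, adjusted p between 0.624 and 0.643). These shifts moved with single mice, *Lpin1* minus *Lpin2* to -0.05 without the first WT mouse and -0.90 without the fourth, and *Lpin2* minus *Lpin3* to 0.07 without the second KO mouse.

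Partners of the lipins were read beside them. Of 5 genes, the lipin phosphatase *Ctdnep1* with its subunit, 2 PGC-1 coactivators and *Ppara*, 0 were called. The highest change was that of *Ppargc1a*, which encodes PGC-1α, with 0.63, 0.82, 0.87 and 1.32 in WT and 1.66, 1.41, 1.85 and 1.13 in KO. Its KO mice lay above all WT mice except in 1 case, and the change of 0.60 did not pass (limma adjusted p = 0.236). The lowest was *Ctdnep1* with -0.12.

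The DGAT step closes the pathway. The within-group SD was 0.187 for *Dgat2* and 0.098 for *Dgat1*, exceeded by 39.9% and 75.9% of the genes tested. *Dgat2*, which in liver mainly uses newly made fatty acids, gave 7.52, 7.79, 7.83 and 7.92 in WT and 7.54, 7.80, 7.80 and 8.04 in KO. The ranges of the genotypes almost coincided. Its log2 change was 0.03 (standard error 0.12, 95% interval from -0.25 to 0.32, limma adjusted p = 0.939), which as a fold is from 0.838 to 1.25.

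*Dgat1*, whose enzyme re-esterifies fatty acids taken up from outside, gave 1.38, 1.49, 1.58 and 1.51 in WT and 1.33, 1.36, 1.56 and 1.51 in KO. Again the groups overlapped. *Dgat1* thus changed by -0.05 (standard error 0.08, 95% interval from -0.24 to 0.13, limma adjusted p = 0.825), or a fold from 0.848 to 1.09. *Dgat2* minus *Dgat1* shifted by 0.09 (exact permutation p = 0.371, adjusted p = 0.624). Read from the brightest probe, the DGATs, *Lpin3* and *Gpat4* were the 4 genes whose 95% interval excluded a change of 1.5-fold in either direction. For *Gpat4* this depended on the probe, since the intervals of its 2 other probes reached down to a fold of 0.652 and 0.664, past the limit of 0.667, and without the fourth WT mouse its log2 change was -0.40. *Gpam* was called. For *Gpat3*, *Lpin1*, *Lpin2*, *Mogat1* and *Mogat2* the interval of the brightest probe held a change of that size. The arrays thus do not show that these 5 were alike in the genotypes. For *Gpat3* this too depended on the probe, since the interval of its dimmer probe was a fold from 0.745 to 1.32.

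The MOGAT genes were dim in these livers. *Mogat1* gave -2.10, -2.41, -2.48 and -2.63 in WT and -2.07, -2.16, -1.79 and -1.65 in KO. In KO 3 of 4 mice lay above the highest WT mouse, and 1 KO mouse lay inside the WT range. The log2 change was 0.48 (standard error 0.15, 95% interval from 0.14 to 0.82), which is 1.40-fold, with p = 0.0114 before and 0.226 after adjustment in limma (exact permutation p = 0.0571). Under normexp background correction the change was 0.20. Its second probe was not well above background on any of the 8 arrays and gets no fold. *Dgat2* minus *Mogat1* shifted by -0.45 (exact permutation p = 0.0857, adjusted p = 0.257).

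*Mogat2*, the intestinal isoform, gave -4.04, -1.64, -1.63 and -2.21 in WT and -2.35, -1.87, -1.37 and -2.23 in KO. The probe was well above background on 3 WT and 4 KO arrays, and the first WT mouse lay far below the others. *Mogat2* changed on average by 0.42 (standard error 0.52, 95% interval from -0.77 to 1.61, limma adjusted p = 0.783), and it was 0.11 under normexp background correction and -0.13 without the first WT mouse. The within-group SD of 0.86 was exceeded by 0.775% of the genes tested. Markers of the intestinal enterocyte were read beside it. *Lct* and *Alpi* were not well above background on any array, and *Vil1* changed by 0.26 (limma adjusted p = 0.571). *Fabp2* (1.00) and *Apoa4* (1.44), which hepatocytes also express, were called higher. The sum of the 5 markers on the array was between 63.8 and 75.6 times the 75th percentile signal in WT and between 140 and 162 in KO, and its part in the *Mogat2* values was not tested.

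Adipocytes express *Gpam*, *Dgat2* and *Lpin1* strongly, so their markers were read as well. *Adipoq*, *Retn* and *Plin1* were not well above background on any array. *Cfd* was so on 2 of 4 WT and 2 of 4 KO arrays, and *Lep*, *Fabp4*, *Pparg* and *Lpl* were so on all 8. Of 8 markers 4 were tested and 0 were called, with *Lpl* the highest at 0.54 (limma adjusted p = 0.0815). Their sum was between 13.4 and 15.4 in WT and between 16.1 and 20.2 in KO. Pancreatic acinar markers summed to between 43.9 and 56.6 in WT and between 28.5 and 44.0 in KO with 0 of 5 tested genes called, Kupffer cell and leukocyte markers to between 32.9 and 51.1 and between 26.0 and 41.9 with *Marco* called lower (-1.22), and stellate cell markers to between 87.2 and 106 and between 86.0 and 94.8 with 0 called. Their part in the changes was not tested.

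Mice of 1 genotype also differed from each other across the pathway. The first WT mouse was the lowest of the 4 for 7 of the 10 genes and the first KO mouse the lowest of its 4 for 6. *Lpin1* and *Mogat1* were instead highest in the first WT mouse. Feeding state and time of day are known to move *Lpin1* and *Gpam*. Of 13 genes of fasting and glucocorticoid response 0 were called, from -0.26 for *Fkbp5* to 0.76 for *Igfbp1*, whose values went from 4.57 to 6.87 within WT and from 5.79 to 7.72 within KO. Of 12 core clock genes 0 were called, from -0.57 for *Ciart* to 0.70 for *Per3*. Their part in the spread of *Lpin1* was not tested.

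The steps on either side of the pathway were then described from lists of genes. Supply of the backbone came first: of 5 genes that make or carry glycerol 3-phosphate 0 were called, from -0.21 for *Gpd1l* to 0.27 for *Gpd2*. Fatty acids enter as acyl-CoA, and of 6 tested genes of fatty acid activation 0 were called. The highest was *Acsl3*, with 0.97 (limma adjusted p = 0.231), and the lowest was *Slc27a2*, with -0.09. *Acsl5*, which gives acyl-CoA for triglyceride synthesis and was named after its values were seen, changed by 0.57 (limma adjusted p = 0.0484), which is 1.48-fold and just under the fold change asked for.

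Where the route forks to phospholipids and back to phosphatidic acid, 1 of 12 tested genes was called lower and 0 higher. The 1 was *Dgkh*, a diacylglycerol kinase, with -0.68 (standard error 0.18, limma adjusted p = 0.175), and with 1 mouse left out its call was kept in 1 of 8 cases, without the fourth KO mouse. The highest was *Cds2*, which turns phosphatidic acid into CDP-diacylglycerol, with 0.20. The 11 tested genes of droplet storage had 0 calls, from -0.50 for *Plin4* to 0.18 for *Fitm1*, and the 6 genes of VLDL assembly had 0 calls, from -0.11 for *Apoc3* to 0.25 for *Tm6sf2*.

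Breakdown of triglyceride had 1 call among 10 genes. *Pnpla3*, a lipid droplet protein whose gene is a known SREBP1 target, was called higher, but it passed the filter through its KO arrays alone and was well above background on 1 of 4 WT arrays. Its fitted log2 change of 3.59 therefore rests on dim WT values and is not a measured fold, and the filter on all 8 arrays left the gene out. *Pnpla2*, which encodes the main triglyceride lipase, was the lowest with -0.43 (limma adjusted p = 0.245).

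Genes of fatty acid synthesis under SREBP1 stood apart from these lists. Of 11 genes 9 were called higher and 0 lower, with a median change of 0.97. They were *Srebf1*, *Fasn*, *Acacb*, *Acly*, *Scd1*, *Me1*, *Thrsp*, *Acss2* and *Mid1ip1*, with *Thrsp* highest at 2.00 (limma adjusted p = 0.00205). *Acaca* (0.57, 1.48-fold) was the lowest and missed the fold change, and *Elovl6* (0.86, limma adjusted p = 0.236) missed the adjusted p. The list was taken up because the study works on this program, which it tied to SREBP1 in younger mice with the liver-specific deletion. The list was also chosen with earlier results of these arrays known, so it is no independent evidence of the program's direction. The change of *Gpam* (1.07) lay inside the range of this list, and those of the other 9 triglyceride assembly genes lay below its lowest value.

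**Figure D3:**
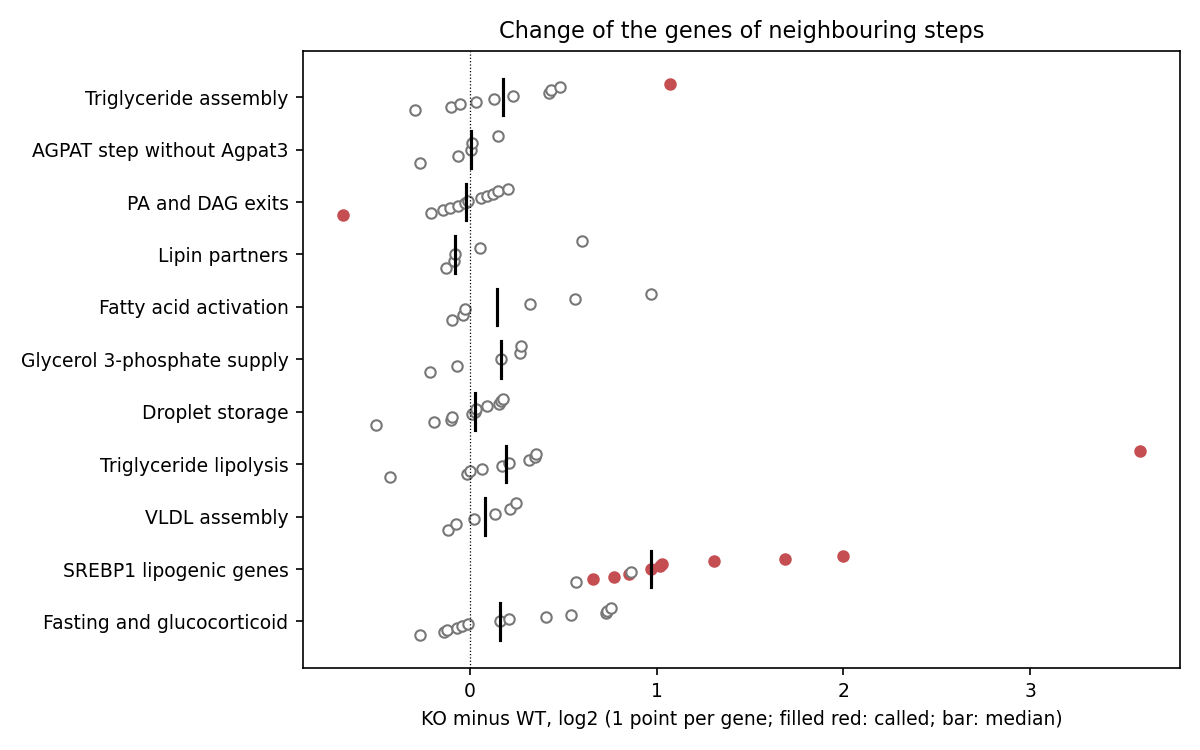
KO minus WT log2 change of the tested genes of each step, 1 point per gene read from its brightest probe, with the 10 triglyceride assembly genes on top. Filled red points were called and black bars are medians. *Gpam* (1.07) is the filled point of the top row, the medians of the other rows lie between -0.08 and 0.19, and the row of SREBP1 lipogenic genes has 9 filled points and a median of 0.97.

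The genes most like *Gpam* over the 8 mice were found from the log2 values of each gene centred on its WT mean. Likeness was the root mean square difference from *Gpam*, whose median over all genes was 0.815. The nearest was *Fads2*, the desaturase of polyunsaturated fatty acid synthesis, at 0.153, then *Acss3*, a mitochondrial acyl-CoA synthetase for short chains, at 0.161. *Rarb*, a retinoic acid receptor, followed at 0.189, then *3110045C21Rik* at 0.20 and *Neurl2* at 0.208. All 5 were called higher, by 0.97, 1.00, 0.94, 0.95 and 0.81 in that order. Since nearness here is mostly a change of the same size, it says nothing about shared function.

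**Figure D4:**
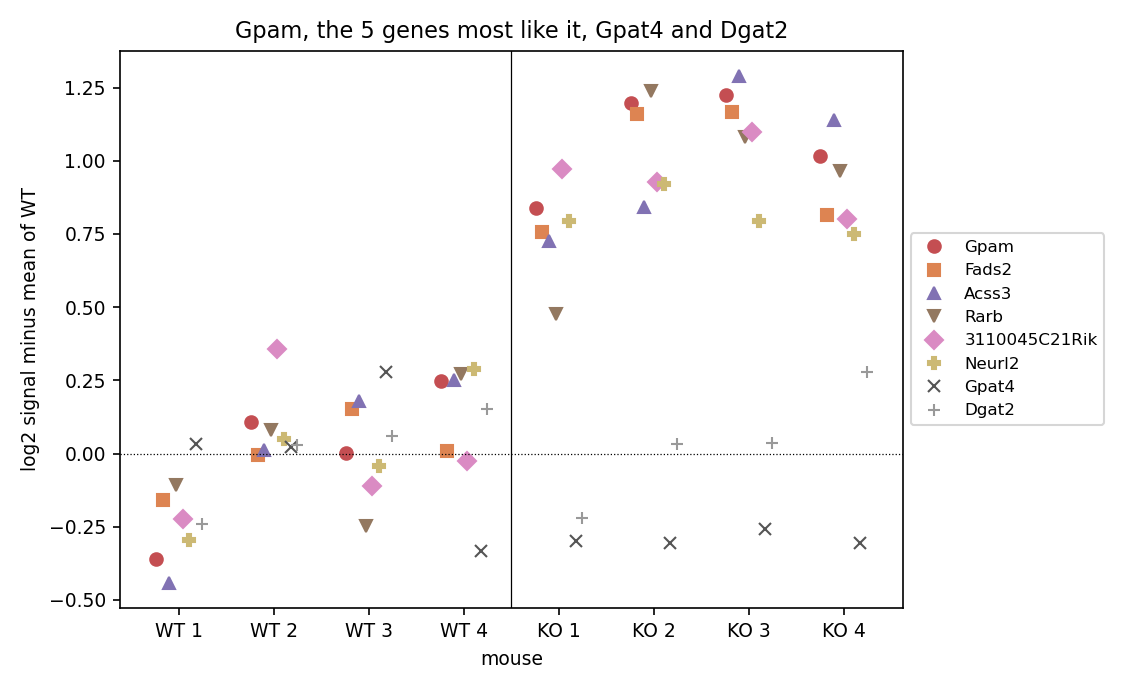
Log2 signal minus the WT mean in each of the 8 mice (horizontal axis) for *Gpam*, the 5 genes with the smallest root mean square difference from it, and *Gpat4* and *Dgat2* as genes of the same pathway. The 6 genes of the first kind rise above 0 in all 4 KO mice, while the KO points of *Gpat4* lie below 0 and those of *Dgat2* on both sides of it.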

How the data were processed

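Liver RNA of 4 *Agpat3* WT and 4 *Agpat3* KO mice was hybridized to one-color Agilent arrays. The authors deposited the Feature Extraction 10.7.1.1 output of every array, and its background-corrected processed signal is a linear fluorescence intensity. The series table they deposited holds log2 values, which on checking were the log2 processed signal minus the array's 75th percentile, apart from how replicate spots were averaged. This percentile was between 261 and 309 intensity units and the median local background between 27 and 32. No spot was saturated, and between 29885 and 31886 of 56605 probes per array were well above background. What limits precision is the number of arrays and, where probes are dim, their signal over background.

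Groups came from the genotype in the labels. After control spots and 86 to 150 outlier spots per array were left out, spots of a probe were averaged and scaled to the 75th percentile on the log2 scale. A probe was kept if it was well above background on every array of WT, of KO or of both (29067 probes). The genotypes were compared by limma 3.58.1 (lmFit, eBayes; R 4.3.3), two-sided, with Benjamini-Hochberg adjustment over these probes. Exact permutation tests used the 70 ways to assign mice to genotypes (scipy 1.17.1). The fit was tested on simulated data. Symbols came from RefSeq's GRCm38.p6 gene table by transcript accession (32994 probes with a symbol). Since the array design names mm9, no gene coordinates are given, and the promoter windows are those of RefSeq on GRCm38.p6. Whether RNA of related genes reached the same probe was not tested.

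The 10 genes and all lists were chosen with earlier results of these data known. Named in the text are the 10 genes, *Agpat3*, the called genes of each other list and, where a list is described, its largest and smallest change, and the 5 genes most like a called one. The call thresholds are those of a figure legend in which it is open whether p was adjusted. Alternatives were normexp (offset 50, on the median spot signal), quantile normalization, median centring, the deposited log2 values, dim probes unfiltered or filtered on all 8 arrays, retained outlier spots, trended robust eBayes, a replicate block, omission of single arrays, other thresholds, and averaging of a gene's probes.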

Additional observations from a re-analysis of the deposited data

Results flagged for a closer look

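*Gpat4* in the third KO mouse (5.70) stood apart from the other 3 KO mice, which lay between 5.65 and 5.66. Its gap to the nearest of them took up more of the range of the group than Dixon's 95% limit for 4 samples allows. Among the 20 groups of 4 examined (10 genes in 2 genotypes) chance alone sets apart about 1. The gap is small beside the SD of *Gpat4* in WT liver, 0.25 (n = 4).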

How the results depend on the processing

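*Gpam* remained the 1 gene of the 10 called higher, with 0 called lower, under 13 alternatives and with each of the 8 mice left out in turn. Its log2 change was between 1.03 and 1.37 under the alternatives and, with mice left out, between 0.95 and 1.15 (limma adjusted p up to 0.106). Same-numbered mice did not deviate together in every pair (correlations of 0.33, -0.11, 0.10 and 0.32), so they were not taken as pairs. The first and last of these exceeded every correlation between differently numbered mice, which lay between -0.27 and 0.27. A shared effect of the column was not tested. With the number, which is also the column on the slide, as a replicate block, *Gpam* kept its call (1.07, limma adjusted p = 0.0494), the other 9 genes gained none, and the neighbouring lists had 13 higher and 1 lower call.

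The sign was reversed for *Dgat1* with normexp (0.0022), for *Dgat2* with median centring (-0.0061) and for *Lpin1* with the mean of its probes (0.0052). With mice left out in turn, the change ranged from -0.11 to 0.34 for *Gpat3*, from -0.33 to 0.20 for *Lpin1*, from -0.0504 to 0.12 for *Dgat2* and from -0.13 to 0.67 for *Mogat2*, which the strict filter leaves out. Of the pairs, *Gpam* minus *Gpat3* ranged from 0.69 to 1.13, *Gpam* minus *Gpat4* from 1.23 to 1.55, *Lpin1* minus *Lpin3* from -0.61 to 0.037, *Mogat1* minus *Mogat2* from -0.22 to 0.71 and *Dgat2* minus *Mogat1* from -0.63 (past the threshold without WT replicate 1) to -0.32. The change of *Lpin2* ranged from 0.25 to 0.57, *Lpin1* minus *Lpin2* from -0.90 to -0.05, *Lpin2* minus *Lpin3* from 0.07 to 0.34 and *Gpat4* minus *Gpat3* from -0.63 to -0.19. With normexp *Mogat1* changed by 0.20 and *Mogat2* by 0.11. The neighbouring lists had 10 genes called higher, but 6 without the filter, 6 at an adjusted p under 0.05, 9 with the filter on all 8 arrays, 12 with the mean of probes, 13 with normexp, 13 with no minimum fold change, 15 at an unadjusted p under 0.2 and between 6 (without WT replicate 3) and 11 with mice left out. The count of genes called lower, 1 (*Dgkh*), became 0 with normexp, no filter, an adjusted p under 0.05 and the mean of probes. With mice left out it was between 0 and 1, and the 1 was *Dgkh* without KO replicate 4 and *Plin4* without WT replicate 4. Beyond the fewer genes or mice in some of these settings, the cause was not tested.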
